A study of Mus musculus with 2 samples.

Results

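The genes of voltage-gated calcium channels and of calcium handling were examined in mouse cardiomyocytes (MCMs) after knockdown of *Ppp2r5d*, whose product, the B′ subunit of delta type, directs protein phosphatase 2A to its substrates. The members were all genes on the microarray whose name starts with *Cacna*, *Cacnb* or *Cacng*, together with named genes for ryanodine receptors, inositol trisphosphate (IP3) receptors, calcium pumps, sodium-calcium exchangers, sarcoplasmic reticulum (SR) proteins and calcium/calmodulin-dependent kinase II (CaMKII). This rule gave 51 of the 37073 gene names on the array, measured by 122 probes.

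MCMs were bought as cultured cells and passaged. Of the 2 cultures on the arrays, 1 received siRNA-NC, the negative control, and the other siRNA-*Ppp2r5d*. Both were moved to medium without glucose at 48 h and harvested at 64 h, counted from the transfection. With 1 array per condition there is no spread between cultures, no test was made, and the effect of the siRNA and any other difference between these cultures cannot be told apart. The strain, age and sex behind these cells are not given in the sources used here.

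In a heart muscle cell, the L-type channel admits calcium at each beat, and this calcium opens ryanodine receptors on the SR, which release the store that drives contraction. SERCA pumps then return calcium to the SR under the brake of phospholamban and sarcolipin, and the sodium-calcium exchanger carries the remainder out of the cell. Protein phosphatase 2A is known to bind both the L-type channel and the cardiac ryanodine receptor, where it removes phosphates that kinases such as CaMKII add.

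*Ppp2r5d* itself had an intensity of 4701 with siRNA-NC and 676 with siRNA-*Ppp2r5d*, a log2 fold change of -2.61 from its 1 probe, in the direction the labels give. Intensities are the scanner software's background-corrected values. Fold changes were computed after the 75th percentile of each array, 593 for siRNA-NC and 519 for siRNA-*Ppp2r5d*, was set equal. Equal raw intensities therefore correspond to a log2 fold change of 0.19, and positive values mean higher with siRNA-*Ppp2r5d*. A gene's value is the mean over those of its probes that the scanner software called well above background on each array. Where a probe passed on 1 array alone, the dim array was set to the higher of its own signal and the lowest signal so called there (14.9 for siRNA-NC and 13.5 for siRNA-*Ppp2r5d*). This gives a bound on the change. The bound takes the signals as read and leaves out the scanner software's error. That error was larger than the bound for several of these probes, those of *Ryr2* and *Cacna1c* among them.

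The cardiomyocyte label was set against a list of 16 cardiomyocyte markers. Of these, 12 were well above background with siRNA-NC and 13 with siRNA-*Ppp2r5d*, while *Actn2*, *Myl2* and *Myl7* were on neither array and the alpha myosin heavy chain *Myh6* passed on the siRNA-*Ppp2r5d* array alone, at 14.2. The summed intensity of the list was 13238 and 12517. Each such sum here takes the brightest passing probe of each gene, before normalization, so that a single probe can carry it. With siRNA-NC, the *Actc1* probe gave 6443 of the cardiomyocyte sum. The 12 cardiomyocyte markers measured on both arrays had a median log2 fold change of 0.45 after normalization. They ranged from -0.71 for *Cox6a2* to 1.93 for *Csrp3*. All 5 smooth muscle markers and 7 of 9 fibroblast markers were above background on both arrays, with summed intensities of 147494 and 134239 for smooth muscle and of 302550 and 282795 for fibroblasts, and median log2 fold changes of -0.020 and -0.049. Of 6 neuronal markers, 5 were above background on both arrays, with a median of 0.24, and of 7 skeletal muscle markers also 5, with a median of 0.12. The skeletal muscle values ranged from -0.56 for *Actn3* to 1.22 for *Tnnt3*. Of 4 leukocyte markers, 3 were above background on both arrays, and of 5 endothelial markers 1 with siRNA-NC and 2 with siRNA-*Ppp2r5d*. Because RNA was taken from whole cultures, fewer cells of a type and less RNA per cell cannot be told apart in any value here.

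The sequences of 4 probes of 60 bases were as follows, written 5′ to 3′ in the sense of the transcript. They are probes of genes described at length below that span an intron or hold a reading frame. The *Cacna1g* and *Cacna1c* probes gave bounds, the *Cacng7* probe is the one with the smaller change of its pair, and the *Ryr3* probe is one of a pair with nearly equal changes. Capitals mark, for *Cacna1g*, the stop codon TGA, up to which 1 reading frame of the probe is open. The *Cacna1c* probe has an interval on the genome of 6907 bases, so that it spans an intron, and the *Cacng7* probe, with an interval of 414 bases, does so as well.
*Cacna1g*, chr11:94270459-94270518, minus strand: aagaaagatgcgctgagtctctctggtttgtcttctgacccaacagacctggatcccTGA
*Cacna1c*, chr6:118685016-118691922, minus strand: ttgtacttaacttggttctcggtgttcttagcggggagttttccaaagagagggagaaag
*Cacng7*, chr7:3338624-3339037, plus strand: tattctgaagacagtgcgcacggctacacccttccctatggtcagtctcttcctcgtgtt
*Ryr3*, chr2:112476718-112476777, minus strand: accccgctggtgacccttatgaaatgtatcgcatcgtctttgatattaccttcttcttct
Coordinates are of mouse build mm9, as the array files give them. Exon annotation of that build was not used here, so that exon numbers are not given.

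Most calcium genes measured on both arrays lay within 1.5-fold, as did most of all measured genes. Of the 51 members, 35 were measured on both arrays, 5 on 1 array and 11 on neither. The measured share was 68.6%, beside 54.9% of all gene names. The median log2 fold change was 0.026 over the 35 members and 0.026 over all 20350 genes measured on both arrays. Of the 35, 20 (57.1%) lay above 0, beside 54.2% of all genes, and 15 below, and 18 (51.4%) lay within 0.2 of 0, beside 56.8% of all genes. At 1.5-fold, 1 member was higher, *Cacng7*, where 3.36% of all measured genes were, and 2 were lower, *Cacna1g* and *Slc8a1*, where 4.64% were. At 2-fold, the threshold of the study's methods, *Cacna1g* was the 1 member, beside 1.96% of all measured genes. Scaling to the spike-in probes in place of the 75th percentile lowered the values of all genes alike, their median to -0.19, so that the sign of a small value above 0 depends on the scaling, as it does for 13 of the 35 members.

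**Figure D1:**
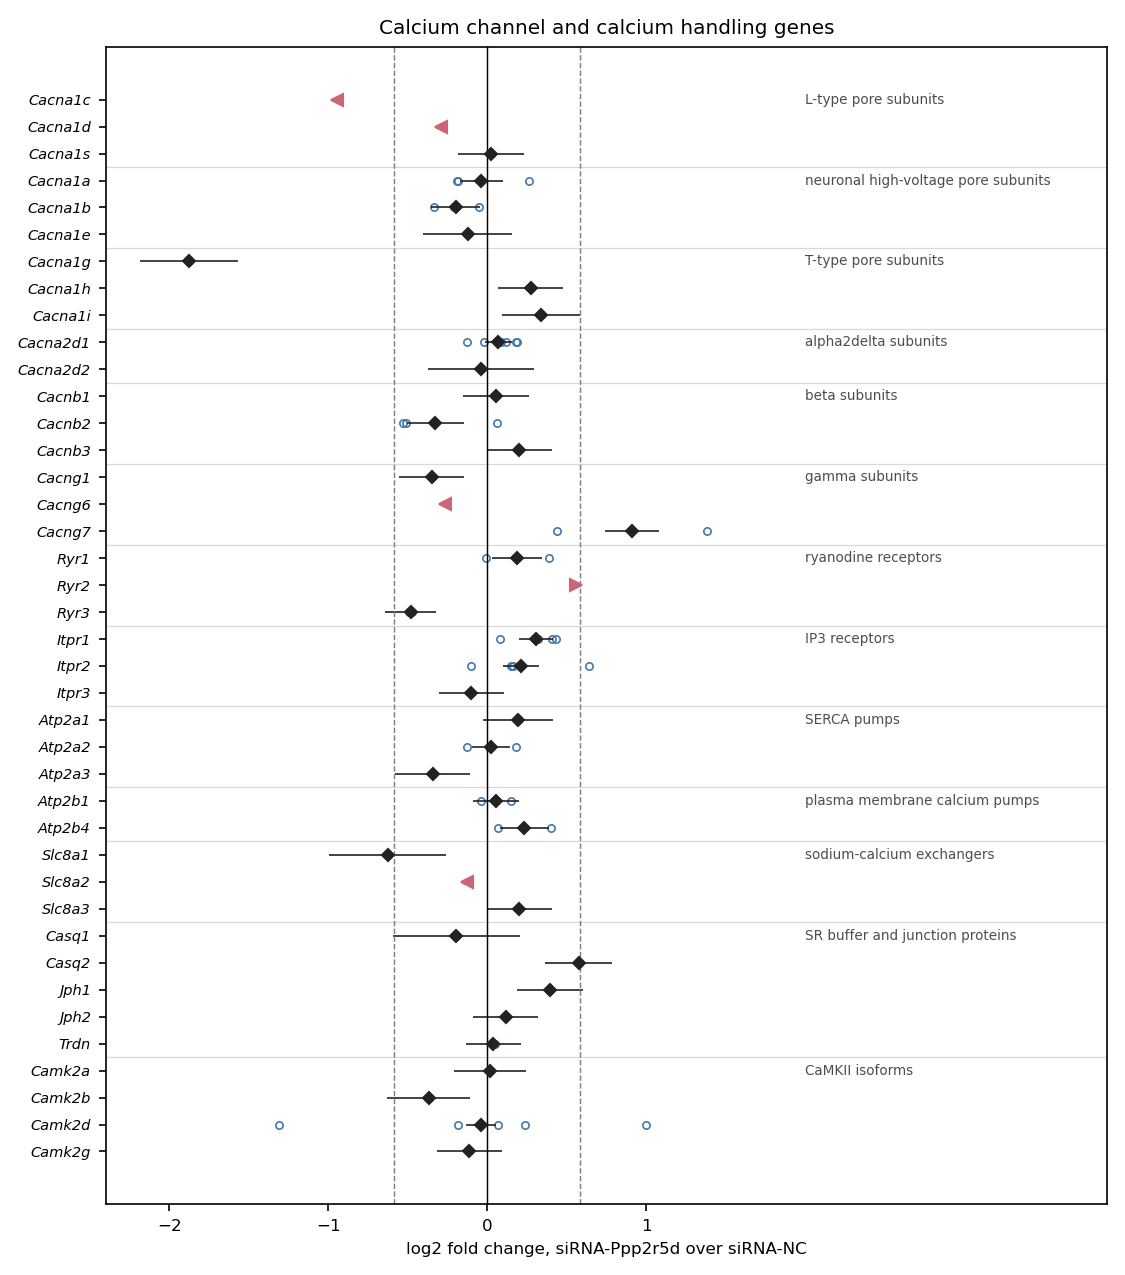
Log2 fold change, siRNA-Ppp2r5d over siRNA-NC, of the 40 calcium genes above background on at least 1 array, ordered by role. Diamonds are gene values with the scanner software's error of the spots, which is no error between cultures; open circles are single probes of genes with several; triangles are bounds and point away from 0; dashed lines mark 1.5-fold. *Cacna1g* stands far to the left, *Cacng7* to the right, and the probes of *Camk2d* spread from -1.31 to 0.997.

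**Figure D2:**
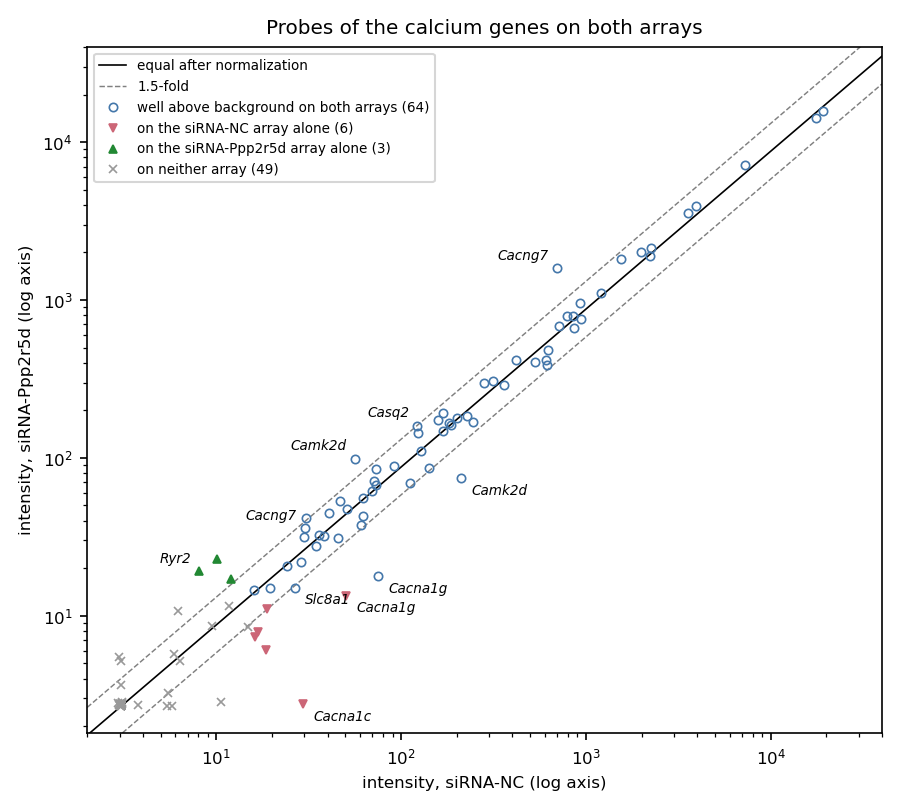
Intensity of each of the 122 member probes on the siRNA-NC array (x axis) and the siRNA-Ppp2r5d array (y axis), both on log axes, with the solid line at equal level after normalization and dashed lines at 1.5-fold. Of the probes, 64 passed the background call on both arrays, and most of these lie between the dashed lines.

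The error that can be estimated here is that of spots. Over probes printed in 10 spots, the SD between spots of the log2 fold change had a median of 0.035 for 267 probes with an intensity of 1000 and over, 0.059 for 9 probes from 100 to 1000 and 0.21 for 7 probes under 100. Dim probes thus carry the larger error, and several heart channel genes were dim.

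Among the pore-forming subunits of T-type channels, which open at low voltages and take part in pacemaking, *Cacna1g* was far lower with siRNA-*Ppp2r5d*. One of its probes had an intensity of 74.8 with siRNA-NC and 17.9 with siRNA-*Ppp2r5d*. Its log2 fold change was -1.87, or 3.66-fold lower, with a scanner software error of 0.31. A second probe, the one printed above that ends in the stop codon, had 50.4 and 13.4 and fell below the background call on the siRNA-*Ppp2r5d* array, which makes it at least 3.28-fold lower. Both probes lie within 0.6 kb of each other and point the same way. The remaining probe was above background on neither array, at 3.05 and 2.71. *Cacna1h*, the other T-type pore known from the heart, had 280 and 296, a log2 fold change of 0.28. A further *Cacna1h* probe passed on the siRNA-*Ppp2r5d* array alone, at 12.0 and 17.2. *Cacna1i*, the remaining T-type pore, had 40.5 and 44.8, a log2 fold change of 0.34. The size of the *Cacna1g* value depended on the processing. It was -0.59 after normexp background correction, which ends the 2-fold call, -1.19 with all 3 probes averaged and -2.09 under scaling to the spike-in probes, and the gene was not measured with a signal of at least 50 on both arrays.

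Of the L-type pores, *Cacna1c*, the main L-type channel of ventricular muscle, was near the limit of detection. Its 3 probes of 60-base intervals were above background on neither array, at 3.00 to 3.05 with siRNA-NC. The junction probe printed above had 29.6 with siRNA-NC and 2.76 with siRNA-*Ppp2r5d*, which gives a bound of at least 1.92-fold lower. *Cacna1d*, the L-type pore of pacemaker cells, passed on the siRNA-NC array with 1 of 3 probes, at 18.8 and 11.1, a bound of at least 1.22-fold lower. *Cacna1s*, the skeletal muscle pore, was the 1 L-type gene measured on both arrays, with a log2 fold change of 0.026. *Cacna1f*, the pore of the retina, was on neither array. The L-type pores of heart muscle were thus not measured on both arrays at this sensitivity, and their bounds rest on 1 probe each.

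The pores of channels best known from neurons were measured and differed little. *Cacna1a*, of P/Q-type channels, had 3 probes with log2 fold changes from -0.19 to 0.26 and a mean of -0.036. *Cacna1b*, of N-type channels, had 3 measured probes of 6, from -0.33 to -0.051, with a mean of -0.20, and its other probes were on neither array. *Cacna1e*, of R-type channels, had 34.5 and 27.7 for 1 of its 4 probes, a log2 fold change of -0.12. Its other probes were on neither array, and with all 4 averaged the log2 fold change was 0.087.

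Auxiliary subunits set the gating and the surface level of the pores. The alpha2delta subunit *Cacna2d1*, the form of the heart, was the best covered gene, with 6 probes from -0.13 to 0.19 and a mean log2 fold change of 0.072. *Cacna2d2* had 24.2 and 20.6, a log2 fold change of -0.037, and *Cacna2d3* and *Cacna2d4* were on neither array. Of the beta subunits, which carry the pore to the membrane, *Cacnb2* is the main form of heart muscle. Of its 5 probes, 3 were measured and the others were on neither array. The measured probes had 112 and 69.0, 142 and 86.0, and 15.9 and 14.6, the last of them near the background limit. The brighter pair had log2 fold changes of -0.51 and -0.53, the dim probe 0.063, and the mean was -0.33. *Cacnb1*, with 182 and 166, had a log2 fold change of 0.057, *Cacnb3*, with 1996 and 2009, of 0.20, and *Cacnb4* was on neither array.

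The gamma family held the member with the highest value. *Cacng7*, a gamma subunit known mostly as a partner of AMPA-type glutamate receptors in the brain, had 2 probes. The probe printed above had 30.2 with siRNA-NC and 35.9 with siRNA-*Ppp2r5d*, a log2 fold change of 0.44. The other, 29.1 kb further along the chromosome at chr7:3367751-3367810 on the plus strand, had 696 and 1590, a log2 fold change of 1.39. Both were higher, but 1 of them was past 1.5-fold. The mean of the pair was 0.91, or 1.88-fold higher, with a scanner software error of 0.17. The last 30 bases of the distal probe hold the polyadenylation signal AATAAA, in capitals, a motif that is present on this strand in the last 30 bases of 8.13% of all probes and of 6 member probes.
*Cacng7*, distal probe: tcatatgtaaatatcAATAAActttatttc
*Cacng1*, the gamma subunit of skeletal muscle, had 605 and 416, a log2 fold change of -0.35. *Cacng6*, also a muscle form, passed on the siRNA-NC array alone, at 18.5 and 6.06, and is at least 1.20-fold lower. *Cacng2*, *Cacng3*, *Cacng4*, *Cacng5* and *Cacng8* were on neither array.

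Among the release channels of the SR and endoplasmic reticulum, no gene measured on both arrays was past 1.5-fold. *Ryr2*, the ryanodine receptor of heart muscle, was above background with 1 of 3 probes and on the siRNA-*Ppp2r5d* array alone. It had 8.09 and 19.2, a bound of at least 1.48-fold higher, or 0.56 on the log2 scale, with a scanner software error of 0.62. *Ryr3*, the form widespread at low level, had probes at 60.3 and 37.6, and at 615 and 388. Their log2 fold changes of -0.49 and -0.47 were nearly the same for a dim and a bright probe, and the mean of -0.48 is 1.40-fold lower, short of 1.5-fold. The remaining *Ryr3* probe was on neither array, at 11.67 and 11.46, and with all probes averaged the log2 fold change was -0.265. *Ryr1*, of skeletal muscle, had log2 fold changes of -0.008 and 0.39, mean 0.19. Of the IP3 receptors, which release calcium on hormone signals, *Itpr1* was the most even. Its intensities were 159 and 173, 51.3 and 47.5, 124 and 144, and 1548 and 1828, with log2 fold changes of 0.32, 0.082, 0.41 and 0.43 and a mean of 0.31. All 4 lie above 0, but the smallest of them lies within the shift that scaling to spike-in probes gives. *Itpr2* had a mean of 0.21 over 4 probes that ranged from -0.10 to 0.64, and *Itpr3*, at 19116 and 15617, had -0.099.

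No SERCA or plasma membrane calcium pump among the 5 members was past 1.5-fold. *Atp2a2*, the SERCA pump of heart muscle, had intensities of 944 and 759, 168 and 149, and 3571 and 3548 for its 3 probes, a mean log2 fold change of 0.025 and a range from -0.12 to 0.18. *Atp2a1*, of fast skeletal muscle, had 71.5 and 71.7, a log2 fold change of 0.20. *Atp2a3*, of blood and epithelial cells, had 62.1 and 42.9, a log2 fold change of -0.34. The SERCA inhibitors phospholamban (*Pln*) and sarcolipin (*Sln*) were on neither array, at 3.00 and 3.05 with siRNA-NC. *Atp2b1* and *Atp2b4*, pumps of the plasma membrane, had means of 0.058 and 0.24 over 2 probes each.

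The values of the sodium-calcium exchangers rest on 1 probe each. *Slc8a1*, the exchanger of the heart, had 26.6 and 15.1 for 1 of its 4 probes, a log2 fold change of -0.63, or 1.54-fold lower, with a scanner software error of 0.37. Its other 3 probes were on neither array, 1 of them at 6.23 and 10.74, and with all 4 probes averaged the log2 fold change was 0.11. *Slc8a2*, of the brain, was at 16.8 and 7.90, a bound of at least 1.09-fold lower. *Slc8a3*, of brain and skeletal muscle, had 2 probes that differed in detection. One had 16.1 and 7.39 and passed with siRNA-NC alone. The other had 3925 and 3951, a log2 fold change of 0.20, and gave the gene its value. This second probe, at chr12:82299156-82299215, ends in 30 bases of pure CA repeat, all in capitals here.
*Slc8a3*, repeat probe, last 30 bases: CACACACACACACACACACACACACACACA
Of all probes on the array, 17 hold such a repeat, AC or CA, of at least 24 bases on the printed strand, and all 17 passed the background call on both arrays, as did 56% of all probes. All 17 also had an intensity of at least 1000 with siRNA-NC, beside 20.9% of all probes. The log2 fold changes of the 17 lay between -0.11 and 0.20. The part of the repeat in the *Slc8a3* value was not tested. The counts of members past 1.5-fold and past 2-fold were the same without these probes, as they had to be. The 1 member probe among them, with its 0.20, lies within 1.5-fold. The *Slc8a1* probe and the other *Slc8a3* probe lie over related stretches. They share 38 of 51 overlapping bases (74.5%), which are the capitals in the pair below.
*Slc8a1*, chr17:81844837-81844896, minus strand: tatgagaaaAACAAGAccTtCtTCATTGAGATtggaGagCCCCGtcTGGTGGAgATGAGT
*Slc8a3*, chr12:82317709-82317768, minus strand: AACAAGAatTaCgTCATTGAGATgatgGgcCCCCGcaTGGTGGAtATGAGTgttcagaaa
Whether the paralogs bind each other's probe was not tested.

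Of the 5 proteins that store calcium in the SR and hold it against the surface membrane, none was past 1.5-fold. *Casq2*, cardiac calsequestrin, had 123 with siRNA-NC and 160.0 with siRNA-*Ppp2r5d*, a log2 fold change of 0.58, or 1.49-fold higher, just short of 1.5-fold. Its second probe, which spans an intron, was on neither array. *Casq1*, the skeletal form, had 19.6 and 14.96, a log2 fold change of -0.19. *Jph1*, a junctophilin that ties the SR to the surface membrane, had 168 and 194, a log2 fold change of 0.40. *Jph2*, the junctophilin of heart muscle, had 718 and 682, a log2 fold change of 0.12, and triadin (*Trdn*), which links calsequestrin to the ryanodine receptor, had 0.040 over 2 probes. Heart forms among the members lay on both sides of 0, with *Casq2*, *Cacna1h* at 0.28 and the bound of *Ryr2* above it. Below it were *Cacna1g* at -1.87, *Slc8a1* at -0.63 from 1 of 4 probes, *Cacnb2* at -0.33 and the bounds of *Cacna1c* and *Cacna1d*. Other heart forms lay nearer 0, with *Jph2* at 0.12, *Cacna2d1* at 0.072, *Atp2a2* at 0.025 and the mean of *Camk2d* at -0.038. The cardiomyocyte markers, with their median of 0.45, also lay on both sides, with *Cox6a2* at -0.71, *Tnni3* at -0.19 and *Actc1* at -0.098 as the 3 below 0. Their part in the members' values was not tested.

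CaMKII phosphorylates the L-type channel and the ryanodine receptor, and *Camk2d* is its main gene in the heart. The mean log2 fold change of *Camk2d* was -0.038, but this mean hides the widest spread of probes of any member, with an SD of 0.84 between 5 probes. In order along the gene, the first probe had 622 and 479, a log2 fold change of -0.18. The second, 55.6 kb on, had 924 and 952, or 0.24. The next, which lies 0.1 kb further, had 56.5 and 98.7, or 0.997, with a scanner software error of 0.22. The one after it had 1213 and 1112, or 0.068, and the last, at 61.4 kb, had 210 and 74.1, or -1.31, with an error of 0.21. The array files place these 5 probes on 3 different transcripts, and which transcripts were present in these cells was not analysed here.

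**Figure D3:**
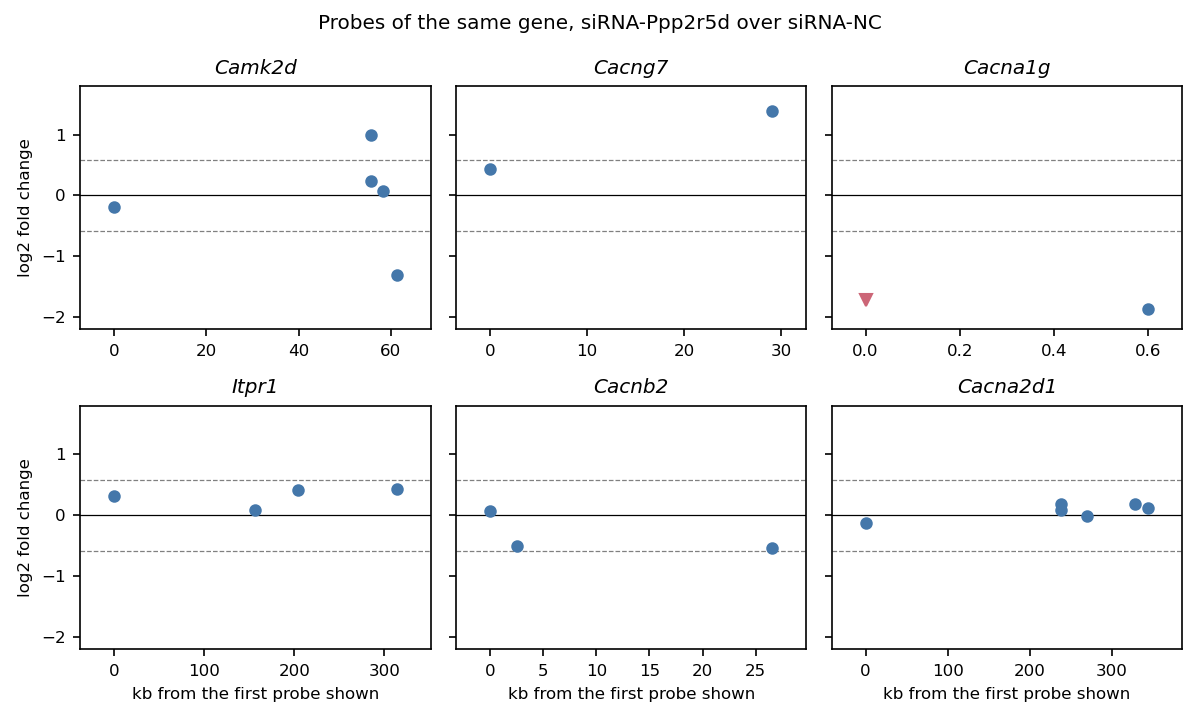
Log2 fold change, siRNA-Ppp2r5d over siRNA-NC, of each probe against its distance in kb from the first probe shown, for 6 genes. Circles are probes above background on both arrays, the triangle for *Cacna1g* is a bound, and dashed lines mark 1.5-fold. The probes of *Camk2d* lie on both sides of 0 and past 1.5-fold in both directions, while the 4 probes of *Itpr1* lie between 0.082 and 0.43.

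*Camk2b*, the form of brain and skeletal muscle, had 1 of its 4 probes printed in 10 spots, which shows the error of spots within a member. The other *Camk2b* probes were on neither array. The 10 spots ranged from 40.1 to 53.3 with siRNA-NC, with a median of 44.8, and from 25.4 to 38.5 with siRNA-*Ppp2r5d*, with a median of 31.8. The raw intensities of the 2 sets of spots did not overlap, whereas after normalization the highest siRNA-*Ppp2r5d* spot lies within the siRNA-NC range. The log2 fold change was -0.37 ± 0.24 (SD of 10 spots) and all 10 spots were below 0. Spots of 1 probe are repeat readings of the same RNA and no replicates of the culture. *Camk2a*, of neurons, had 62.5 and 55.3 and a log2 fold change of 0.018, with a further probe on the siRNA-*Ppp2r5d* array alone at 10.2 and 22.8, at least 1.75-fold higher. *Camk2g*, at 17538 and 14194, had a log2 fold change of -0.11.

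The spread between probes of a gene does not depend on the scaling. Among the 14 members with several measured probes, the median range between the lowest and the highest probe was 0.34 on the log2 scale, beside 0.20 for 7168 genes of the whole array. The number and the brightness of probes per gene were not matched in this comparison.

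**Figure D4:**
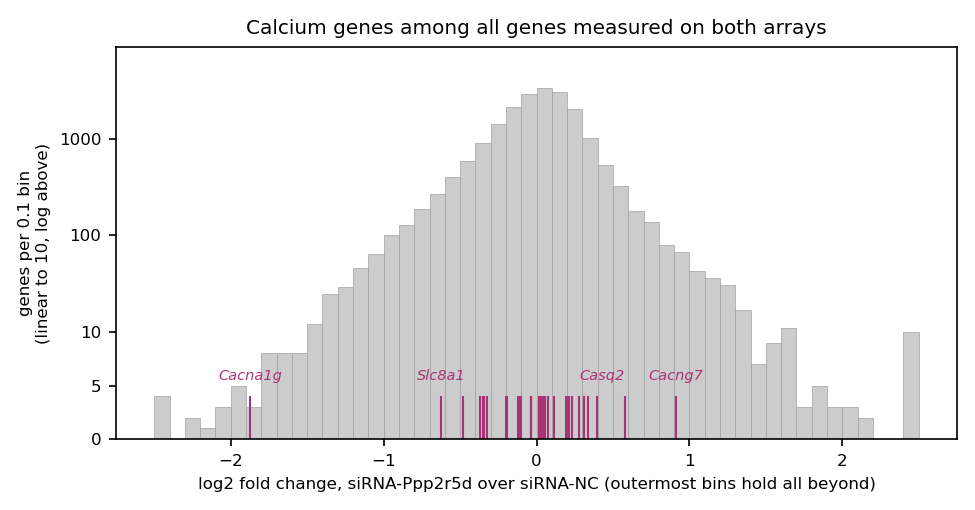
Number of genes per 0.1 bin of log2 fold change, siRNA-Ppp2r5d over siRNA-NC, for the 20350 genes measured on both arrays (grey bars, linear up to 10 and log above), with the 35 measured calcium genes as short lines at the base. The calcium genes lie over the bulk of all genes, with *Cacna1g* far to the left at -1.87 and *Cacng7* at 0.91.

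A list of 41 other calcium genes was set beside the members. Of these, 40 were on the array and 36 were measured on both arrays, with a median log2 fold change of -0.015. None was higher and 1 was lower by 1.5-fold, beside the 3.36% and 4.64% of all genes above. The lower gene was *Atp2b3*, a plasma membrane calcium pump best known from neurons, with 53.0 and 21.6 for 1 of 3 probes, a log2 fold change of -1.11. Its other probes were on neither array, 1 of them at 3.05 and 11.02. The 5 genes of store-operated entry, the STIM sensors and the ORAI channels they open, ranged from -0.35 to 0.30. The 3 calmodulin genes, which encode the common calcium sensor, lay from -0.17 to -0.035. The 7 measured genes of calcineurin, the calcium-dependent phosphatase, and of its regulators ranged from -0.25 to 0.43, with *Rcan2*, an inhibitor of calcineurin, highest at 0.39 to 0.47 over its 3 probes. The 8 genes of mitochondrial calcium transport ranged from -0.23 to 0.099, the 10 luminal and release channel regulators, chaperones such as calreticulin among them, from -0.17 to 0.31.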

How the data were processed

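RNA from the siRNA-NC and the siRNA-*Ppp2r5d* culture was measured on 1 one-colour (Cyanine 3) array per condition. The authors deposited the intensity of each spot, background-corrected within the array by Agilent Feature Extraction 10.7.1.1 per the submitters' processing notes, and a matrix of log2 values. The deposited log2 values matched a quantile normalization of the log2 intensity with a median absolute difference of 1.40e-05, and were used as an alternative.

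Of 59305 non-control spots, 35544 passed the background call with siRNA-NC and 35174 with siRNA-*Ppp2r5d*. Spots marked as outliers, 126 and 95, were left out, none of them of a member, and no member spot was saturated. Log2 was taken of each spot, and the spots of a probe were averaged. Each array's 75th percentile was set to 0, and probes of a gene well above background on both arrays were averaged. Precision is limited by the number of arrays. No test was run, and the *t*-test of the study's methods could not be computed with 1 array per condition.

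Every member is accounted for, with values where it was above background. Of the other calcium genes, those past 1.5-fold were to be named, and *Rcan2* and calreticulin were named in addition after the values were seen. Whole probes were printed where they span an intron or hold an open reading frame. Of the remaining probes at most 30 bases were printed. All 51 members are symbols of the RefSeq gene table (GRCm38.p6), on the chromosome that the array gives. The members and the lists were chosen with earlier results of these data known.

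Alternatives were quantile normalization, cyclic loess, the median of detected probes, scaling to spike-in probes, the authors' log2 values, normexp with an offset of 50, no filter on dim probes, a signal of at least 50 on both arrays, outlier spots kept and the probe with the highest mean signal. Leaving out probes with an AC repeat was added after seeing the data. The gene step was run on a simulated copy of the siRNA-NC array. In it, 200 of 21138 genes received a 3-fold change under noise with an SD of 0.1. Past 2-fold, 200 were recovered with 0 false calls. So large a change under so small a noise could hardly be missed, so that this checks the code alone. The noise was below the spot SD of 0.21 for probes under 100, and no difference between cultures was simulated. The software was limma 3.58.1 under R 4.3.3, and pandas 2.3.3, NumPy 2.4.6 and matplotlib 3.10.9 under Python 3.11.15.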

Additional observations from a re-analysis of the deposited data

How the results depend on the processing

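No paired analysis was possible because each condition had 1 array, and for the same reason no array could be left out. The count of members higher by 1.5-fold was 2 under quantile normalization, cyclic loess, the authors' log2 values and the median of detected probes, where *Casq2* joined *Cacng7* at 0.61, 0.61, 0.61 and 0.60. The count of members lower by 1.5-fold was 1 under quantile normalization, the authors' log2 values and normexp, 0 with a signal of at least 50 and 4 without a filter on dim probes. It was 3 under scaling to spike-in probes, where *Ryr3* was at -0.70. The count past 2-fold was 0 under normexp, 2 with a gene's brightest probe in place of the mean, and 2 without a filter. Scaling to spike-in probes shifts all genes alike, and moved the median of the members and of all genes from 0.026 to -0.19, and normexp gave a median of 0.071 for the members. *Slc8a1* turned to 0.11 without a filter and was -0.56 under quantile normalization and the authors' values and -0.026 under normexp. *Cacna1g* stayed below 0 in the alternatives that measured it, from -2.09 to -0.59, and *Cacng7* above 0, from 0.70 to 1.39. A signal of at least 50 left 27 members measured, without *Cacna1g* and *Slc8a1*, by its construction. Over single members, 367 of 376 values in the 11 alternatives kept their side of 1.5-fold, changes of sign within 1.5-fold not counted. The cause of the other moves was not tested. Signal over background limits the cardiac genes *Cacna1c*, *Ryr2*, *Slc8a1* and *Pln*.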

Other observations

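Further families that handle or sense calcium were described after the data were seen, with the shares of all genes past 1.5-fold being 3.36% higher and 4.64% lower. Of 24 genes of the TRP cation channels, 10 were measured on both arrays and 0 were past 1.5-fold. All 7 genes of the P2X receptors, channels that open on extracellular ATP, were measured. Among them *P2rx3*, best known from sensory neurons, had 63.7 and 36.0 for one probe and 204 and 110 for another, a mean log2 fold change of -0.66. Of 13 S100A genes, small calcium-binding proteins, 11 were measured. *S100a8*, a protein of myeloid cells that is induced in inflammation, had 106 with siRNA-NC and 274.5 with siRNA-*Ppp2r5d*, a log2 fold change of 1.57 from 1 probe. The summed intensity of the leukocyte markers was 5321 and 4392, and their part in this value was not tested. Of 12 annexins of the A group, which bind membranes in a calcium-dependent way, 10 were measured, with values from -0.31 to 0.34 and none past 1.5-fold.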
